A study of Mus musculus with 9 samples.

Results

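The genes described here are 34 mouse genes of the endoplasmic reticulum (ER): chaperones and folding enzymes of its lumen, the machinery that returns failed proteins to the cytosol, the stress sensors of its membrane with the transcription factor Xbp1, and the channel through which new proteins enter. They were given as a list of symbols and matched to the array's rows through Entrez Gene numbers. All 34 had a probe set, among 24011 named genes, and all 34 passed the filter on low levels that left 16808 genes to be tested.

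RNA came from the large intestine of C57BL/6 mice carrying a hairpin RNA (shRNA) and the doxycycline-dependent activator rtTA. The DHX9-1271 group (3 arrays) and the DHX9-837 group (3 arrays) expressed different hairpins against Dhx9, a helicase that unwinds RNA and RNA-DNA hybrids, and the Control group (3 arrays) expressed a hairpin against firefly luciferase (FLUC), which mice lack. The hairpins were induced in mice 4 weeks old, in all groups and so in the controls too, by 14 days of drinking water that held doxycycline (1 mg/ml) and sucrose (5%). What drives rtTA is not given in the sources used here, nor is how many animals gave each sample. The labels do not say that replicates are separate animals, so a p-value here reflects only how far these samples spread, which may be technical. Values are log2 expression levels from Affymetrix Mouse Gene 2.0 ST arrays, so a difference of 1 is a doubling. In a whole-tissue extract, fewer cells of a type and less RNA per cell cannot be told apart.

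Proteins bound for the cell surface or for secretion are threaded into the ER, folded there with the help of chaperones, and given disulfide bonds and sugar chains. When folding falls behind, 3 membrane sensors start the unfolded protein response. IRE1 (gene Ern1) splices the messenger RNA of Xbp1, ATF6 is cut to release a transcription factor, and PERK (gene Eif2ak3) slows translation while favouring the factor ATF4. ATF6 and spliced XBP1 raise the chaperone genes, of which Hspa5, encoding BiP, is the classic reporter. In the large intestine the pathway is known for its part in goblet cells, which make mucin, and in plasma cells, which secrete antibody. A gene-level array value does not measure the splicing of Xbp1, the cutting of ATF6 or the phosphorylation of PERK.

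Chaperone genes are known to share the ER stress response element (ERSE), the docking site for ATF6 and NF-Y, and the copies found in these genes are shown because they tie the members to the pathway by sequence and not by level. The motif searched was CCAAT, 9 bases of any kind and CCACG, on both strands, in RefSeq promoters that run from 250 bases before to 50 bases after a gene's start (build GRCm38.p6). Promoters were matched for 27 of the 34 genes. Hyou1, Spcs3, Derl1, Ssr2, Manf, Sec61a1 and Atf6 had none in the table. The element was in 8 of the 27 genes (29.6%), against 37 of all 27025 genes in the table (0.137%). It is already known from chaperone genes such as these, so this excess is a description and no independent result. Each copy is printed from its CCAAT end with 8 bases on either side, the element in capitals.
Hspa5, chr2:34772025-34772043, + strand, 65 to 47 bases before the start: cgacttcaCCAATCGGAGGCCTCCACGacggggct
Hsp90b1, chr10:86705638-86705656, - strand, 212 to 194 bases before the start: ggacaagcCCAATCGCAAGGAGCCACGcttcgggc
Hsp90b1, chr10:86705533-86705551, + strand, 107 to 89 bases before the start: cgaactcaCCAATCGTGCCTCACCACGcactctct
Calr, chr8:84847075-84847093, + strand, 162 to 144 bases before the start: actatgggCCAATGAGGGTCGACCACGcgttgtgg
Canx, chr11:50325800-50325818, - strand, 145 to 127 bases before the start: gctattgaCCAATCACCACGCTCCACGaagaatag
Pdia6, chr12:17266491-17266509, + strand, 98 to 80 bases before the start: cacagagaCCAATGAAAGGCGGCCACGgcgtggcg
Dnajc3, chr14:118937827-118937845, + strand, 105 to 87 bases before the start: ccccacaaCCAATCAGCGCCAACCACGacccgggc
Creld2, chr15:88819520-88819538, - strand, 126 to 108 bases before the start: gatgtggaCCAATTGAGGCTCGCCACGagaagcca
Syvn1, chr19:6046532-6046550, + strand, 44 to 26 bases before the start: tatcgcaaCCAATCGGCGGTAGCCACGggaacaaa

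Hsp90b1 held a pair of copies on opposite strands and the other 7 genes held 1 each. The whole window of Hspa5 shows its copy just upstream of the start, again in capitals.
Hspa5, chr2:34771840-34772139, + strand: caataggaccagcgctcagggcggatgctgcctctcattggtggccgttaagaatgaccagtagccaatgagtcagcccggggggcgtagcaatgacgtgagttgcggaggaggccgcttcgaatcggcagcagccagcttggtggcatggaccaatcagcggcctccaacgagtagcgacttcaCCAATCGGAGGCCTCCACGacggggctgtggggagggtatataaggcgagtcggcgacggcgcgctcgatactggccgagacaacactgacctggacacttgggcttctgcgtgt

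A shorter form, ERSE-II, was added to the search after the first results were known. It was searched on both strands as ATTGG, 1 base of any kind and CCACG. It was found in Herpud1 and Dnajb11, 2 of 27 genes (7.41%), against 12 of all 27025 genes (0.0444%).
Herpud1, chr8:94386377-94386387, + strand, 52 to 42 bases before the start: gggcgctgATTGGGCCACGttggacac
Dnajb11, chr16:22857852-22857862, + strand, 7 to 17 bases from the start: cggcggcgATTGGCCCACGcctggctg

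The core ACGTG, which XBP1 and related factors bind, was in 11 of the 27 genes (40.7%) and in 21.8% of all genes. It can overlap a copy of the longer elements. A match is a description of the letters in this window and no evidence that a factor was bound.

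Dhx9 itself stood at 8.27, 8.22 and 8.18 in the DHX9-1271 arrays, at 8.19, 8.22 and 8.20 in the DHX9-837 arrays, and at 9.21, 9.18 and 9.32 in the Control arrays. No hairpin array overlapped a control array, and the hairpin arrays held 49.6% (DHX9-1271) and 48.8% (DHX9-837) of the control level. An exact two-sided permutation test over the arrays gave p = 0.1 for each hairpin, the smallest p that 3 against 3 arrays allow, and p = 0.0119 for the 6 hairpin arrays against the 3 control arrays. The list of 11 large-intestine epithelial markers, Epcam and Car1 among them, was measured throughout, at a mean log2 level of 11.19 to 11.22 in DHX9-1271, 11.03 to 11.11 in DHX9-837 and 11.16 to 11.22 in Control arrays. Array medians lay between 6.25 and 6.28.

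With DHX9-1271, no ER gene passed the test in either direction. The test was limma's, with Benjamini-Hochberg adjustment across the 16808 genes and a call at an adjusted p under 0.05. Among all genes 4.41% were called in this comparison, 2.83% higher and 1.58% lower. At an unadjusted p under 0.05 there were 2 ER genes, Xbp1 and Ssr3, both higher (5.88%, against 20.5% of all genes). The 34 log2 differences from control ran from -0.12 (Edem1) to 0.24 (Ssr3) with a median of 0.0034, and the median over all genes was 0.0057. With arrays centred on the median of the tested genes the ER median was -0.02, so its sign is not settled. All 3 DHX9-1271 arrays lay above all 3 control arrays for 7 of the 34 (20.6%, against 15.4% of all genes) and below them for none (10.0% of all genes). All 34 intervals at 95% lay within a 1.5-fold change either way, as did those of 93.3% of all genes.

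With DHX9-837, 3 of the 34 rose and none fell. They were Hspa5, Eif2ak3 and Ssr3, and 3 of 34 rising (8.82%) was close to the 8.67% of all genes that rose in this comparison. In either direction 15.6% of all genes were called, against 8.82% of the ER genes, and 6.91% of all genes fell. Of all called genes 55.7% were higher, and 46.1% with arrays centred on the median of the tested genes. At an unadjusted p under 0.05 the count was 6 higher and 2 lower (23.5%, against 30.1% of all genes). The differences from control ran from -0.24 (Sec61b) to 0.35 (Eif2ak3), with a median of 0.06 beside -0.0012 for all genes. All arrays of the group lay above the controls for 9 of the 34 (26.5%, against 17.1% of all genes) and below them for 3, Pdia4, Sel1l and Ern1 (8.82%, against 14.3%). The intervals again lay within 1.5-fold for all 34, and for 90.1% of all genes.

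With both hairpin groups averaged against control, Eif2ak3 and Ssr3 rose, 2 of 34 (5.88%) beside 8.13% of all genes, and none fell, beside 5.33% (13.5% of all genes in either direction). At an unadjusted p under 0.05 there were 4, with Hspa5 and Xbp1 besides, all higher (11.8%, against 29.0% of all genes). All 6 hairpin arrays lay above the 3 controls for Calr, Xbp1, Eif2ak3, Sec63 and Ssr3, 5 of 34 (14.7%, against 10.7% of all genes), and below them for none (6.73% of all genes). The 2 single-hairpin comparisons and this one share the same 3 control arrays. The plot of log2 differences by gene shows how narrow the range was.

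**Figure D1:**
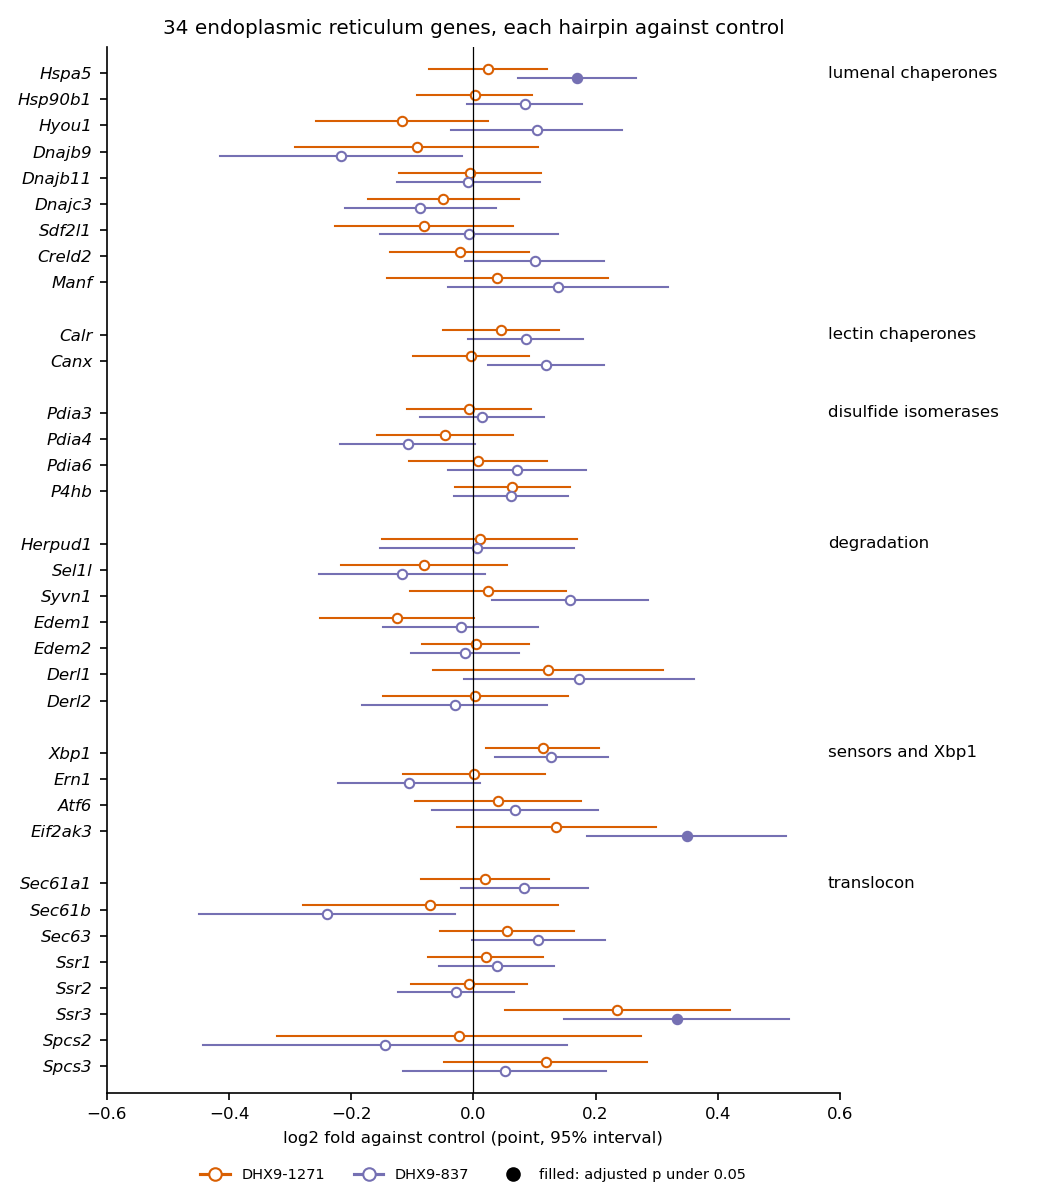
The log2 difference from control (horizontal axis) is drawn for each of the 34 ER genes (rows, grouped by role), with the point as the estimate and the line as its 95% interval, DHX9-1271 in orange above DHX9-837 in purple. Filled points mark the 3 genes called with DHX9-837, Hspa5 (0.17), Eif2ak3 (0.35) and Ssr3 (0.33); no DHX9-1271 point is filled.

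Among the sensors, Eif2ak3 rose with DHX9-837. Eif2ak3 encodes PERK, the kinase that phosphorylates the translation factor eIF2 alpha. Its log2 level was 7.63, 7.64 and 7.64 in DHX9-1271 arrays, 7.81, 7.73 and 8.01 in DHX9-837 arrays, and 7.50, 7.44 and 7.57 in Control arrays. The groups did not overlap: every DHX9-837 array lay above every DHX9-1271 array, and these lay above every control array. The difference from control was 0.35 with DHX9-837 (SE 0.07, 95% interval 0.19 to 0.51, limma adjusted p = 0.0126), or 127.4% of the control level. This call was kept under all 20 alternatives tried (difference 0.27 to 0.41, adjusted p 0.00709 to 0.0475). With DHX9-1271 the difference was 0.14 (SE 0.07, 95% interval -0.03 to 0.30, limma adjusted p = 0.324). Averaged over both hairpins it was 0.24 (SE 0.06, limma adjusted p = 0.036), a call lost in 10 of 19 alternatives (adjusted p 0.0517 to 0.104). It was lost without any 1 of the 3 control arrays, any 1 of the 3 DHX9-1271 arrays or DHX9-837 replicate 1. The other losses were with no level filter, with all probe sets and with array weights.

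The other sensors did not pass the test. Ern1, encoding the nuclease IRE1 alpha, was at 8.51, 8.58 and 8.45 in DHX9-1271 arrays, 8.45, 8.41 and 8.34 in DHX9-837 arrays, and 8.51 in each Control array. The DHX9-837 arrays lay below all control arrays, with a difference of -0.11 (95% interval -0.22 to 0.01, limma adjusted p = 0.205), and with DHX9-1271 the difference was 0.0011 (95% interval -0.11 to 0.12). Atf6, the sensor released by cutting, was at 8.69, 8.72 and 8.62 in DHX9-1271 arrays, 8.63, 8.67 and 8.81 in DHX9-837 arrays, and 8.58, 8.67 and 8.66 in Control arrays. Its groups overlapped, and its differences were 0.04 with DHX9-1271 (limma adjusted p = 0.753) and 0.07 with DHX9-837 (limma adjusted p = 0.503).

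Xbp1, the transcription factor downstream of IRE1, came near the threshold. It was at 9.58, 9.60 and 9.62 in DHX9-1271 arrays, 9.63, 9.63 and 9.58 in DHX9-837 arrays, and 9.49, 9.46 and 9.51 in Control arrays. All 6 hairpin arrays lay above all 3 control arrays. The difference was 0.11 with DHX9-1271 (limma adjusted p = 0.16), 0.13 with DHX9-837 (limma adjusted p = 0.0687) and 0.12 over both (SE 0.04, 95% interval 0.04 to 0.20, limma adjusted p = 0.0556). In the last of these comparisons it was called in 2 of 19 alternatives, the filter at the median level and limma's trended, robust moderation.

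**Figure D2:**
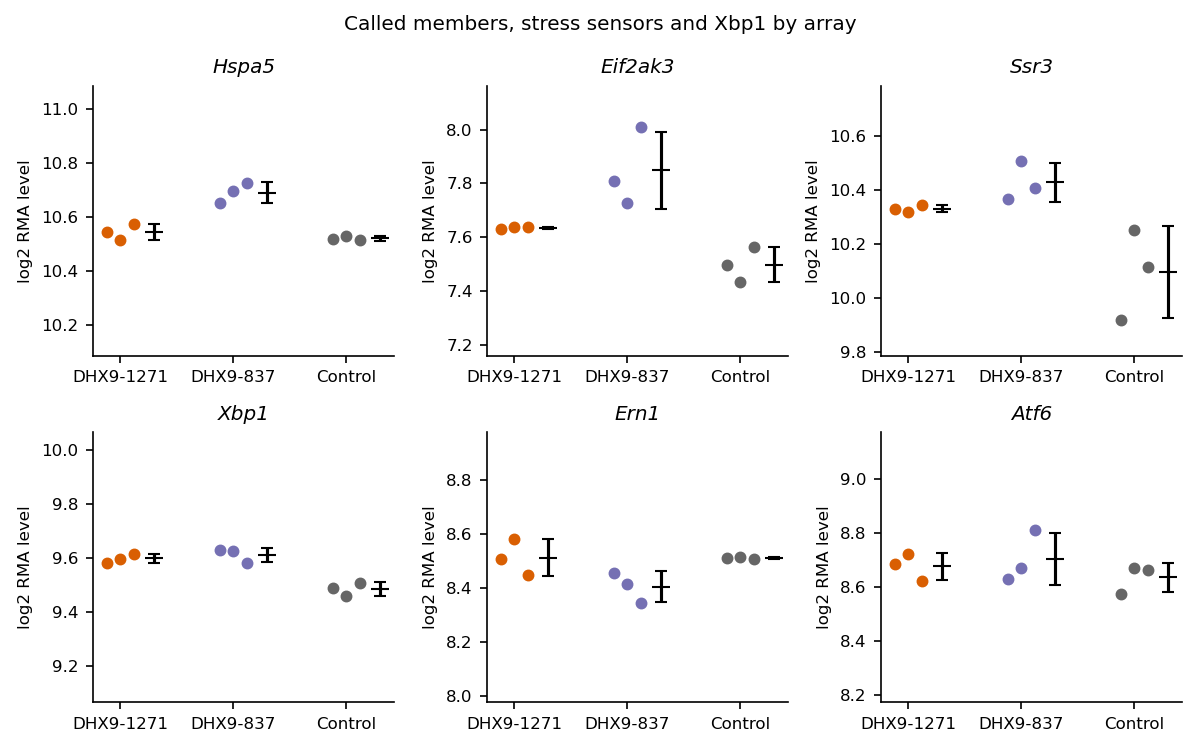
The log2 level (vertical axis, each panel spanning the same range of 1) is shown for every array of DHX9-1271, DHX9-837 and Control, for the 3 called genes in the upper row and for Xbp1, Ern1 and Atf6 in the lower row; the bars are the group mean and SD (n = 3). For Eif2ak3 and Ssr3 the hairpin arrays lie above the control arrays, and for Hspa5 the DHX9-837 arrays stand above the other 6.

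Of 9 lumenal Hsp70 and Hsp90 chaperones and their helpers, Hspa5 rose with DHX9-837 and no other passed the test with either hairpin. The 1 that rose was 11.1% of the 9, beside 8.67% of all genes with that hairpin. Hspa5 encodes BiP, the Hsp70 of the ER that also holds the sensors inactive. Its log2 level was 10.55, 10.52 and 10.58 in DHX9-1271 arrays, 10.65, 10.70 and 10.73 in DHX9-837 arrays, and 10.52, 10.53 and 10.51 in Control arrays. All DHX9-837 arrays lay above all others, and the DHX9-1271 and Control arrays overlapped. With DHX9-837 the difference was 0.17 (SE 0.04, 95% interval 0.07 to 0.27, limma adjusted p = 0.028), 112.5% of control, and with DHX9-1271 it was 0.02 (95% interval -0.07 to 0.12, limma adjusted p = 0.796).

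The Hspa5 call was a close one. It was lost in 9 of 20 alternatives, among them leaving out Control replicate 1, Control replicate 3, DHX9-837 replicate 2 or DHX9-837 replicate 3 (limma adjusted p 0.0619, 0.0625, 0.0747 and 0.0859), while the difference stayed between 0.14 and 0.19. Centring each array on the median of the tested genes, a step chosen after the data were seen, gave 0.14 with an adjusted p of 0.0553.

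The remaining lumenal chaperones lay on both sides of control. With DHX9-837, Hsp90b1, the Hsp90 of the ER also called GRP94, differed from control by 0.08 with no overlap of arrays (limma adjusted p = 0.213). Hyou1, an exchange factor for BiP, differed by 0.10, Creld2, a stress-induced disulfide enzyme, by 0.10, and Manf, a secreted factor that binds BiP, by 0.14, each with overlapping arrays. Dnajb9, a J-protein that hands BiP to IRE1 and is a target of spliced XBP1, lay on the other side at -0.22 (95% interval -0.42 to -0.02, limma adjusted p = 0.132). Dnajc3 (-0.09), Dnajb11 (-0.0083) and Sdf2l1 (-0.007), which also serve BiP, had intervals that included 0. So did Hsp90b1, Hyou1, Creld2 and Manf.

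The lectin chaperones Calr and Canx, which hold sugar-bearing proteins until they fold, both had DHX9-837 arrays above all control arrays. Their differences were 0.09 for Calr (95% interval -0.0092 to 0.18, limma adjusted p = 0.21) and 0.12 for Canx (95% interval 0.02 to 0.21, limma adjusted p = 0.0902). With DHX9-1271 they were 0.04 for Calr and -0.0039 for Canx. Calr varied little within the hairpin groups, with an SD of 0.0013 over the DHX9-1271 arrays and 0.0065 over the DHX9-837 arrays, beside 0.0438 over the controls.

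None of the 4 protein disulfide isomerases, the enzymes that make and reshuffle disulfide bonds, passed the test with either hairpin. Of all genes, 4.41% (DHX9-1271) and 15.6% (DHX9-837) did. Pdia4 was the exception in direction, at -0.11 with DHX9-837 and with every array below the controls (limma adjusted p = 0.179). Pdia3, which works with the lectin chaperones, differed by 0.01, Pdia6 by 0.07 and P4hb, the archetype of the family, by 0.06. The intervals of all 4 lay between -0.22 and 0.18 with this hairpin.

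ER-associated degradation returns misfolded proteins to the cytosol for destruction, and none of its 7 genes passed the test with either hairpin. Of all genes, 4.41% (DHX9-1271) and 15.6% (DHX9-837) did, so none of 7 is no mark of the role. The ubiquitin ligase Syvn1 (HRD1) and its partner Sel1l lay on opposite sides of control with DHX9-837, at 0.16 (every array above the controls, limma adjusted p = 0.0951) and -0.12 (every array below them, limma adjusted p = 0.229). Herpud1, a strongly stress-induced adaptor of that ligase, differed by 0.01 with each hairpin. The mannose-trimming factors Edem1 and Edem2 differed by -0.02 and -0.01 with DHX9-837, and Edem1 by -0.12 with DHX9-1271 (limma adjusted p = 0.249). Derl1, a channel subunit, differed by 0.12 with DHX9-1271 and 0.17 with DHX9-837 with overlapping arrays, and Derl2 by 0.003 and -0.03.

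Among the 8 genes of protein entry, Ssr3 rose with DHX9-837 and no other passed. The 1 that rose was 12.5% of the 8, beside 8.67% of all genes with that hairpin. Ssr3 encodes the gamma subunit of TRAP, the complex that helps certain signal peptides into the channel. Its log2 level was 10.33, 10.32 and 10.34 in DHX9-1271 arrays, 10.37, 10.51 and 10.41 in DHX9-837 arrays, and 9.92, 10.25 and 10.12 in Control arrays. All hairpin arrays lay above all controls, and the controls had the widest spread (SD 0.17, against 0.01 in DHX9-1271 and 0.07 in DHX9-837 arrays). The difference was 0.33 with DHX9-837 (SE 0.08, 95% interval 0.15 to 0.52, limma adjusted p = 0.0253), or 125.9% of control, and 0.24 with DHX9-1271 (SE 0.08, 95% interval 0.05 to 0.42, limma adjusted p = 0.146).

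With DHX9-837 the Ssr3 call was lost in 4 of 20 alternatives. They were leaving out Control replicate 3, DHX9-837 replicate 2 or DHX9-837 replicate 3 (limma adjusted p 0.056, 0.083 and 0.0594), and fitting only the arrays compared (0.0754). Averaged over both hairpins the difference was 0.28 (SE 0.07, limma adjusted p = 0.0304). That call was lost in 9 of 19 alternatives (adjusted p 0.0519 to 0.0779), with differences of 0.20 to 0.36 over all 19. It was lost without Control replicate 1 or 3, any 1 DHX9-1271 array, or DHX9-837 replicate 2 or 3. The other losses were with no level filter and with all probe sets.

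The TRAP subunits Ssr1 and Ssr2 did not pass the test. Ssr1 (alpha) differed by 0.04 and Ssr2 (beta) by -0.03 with DHX9-837, and their intervals, -0.06 to 0.13 and -0.12 to 0.07, lay below the Ssr3 interval, though a test between genes was not run. In the channel itself, Sec61a1 differed by 0.08 and Sec61b by -0.24 with DHX9-837. Sec61b was called lower only when Control replicate 1 was left out, at -0.33 (limma adjusted p = 0.0339), beside an adjusted p of 0.117 with all arrays. Sec63, which couples BiP to the channel, differed by 0.11 (limma adjusted p = 0.178). Spcs2 and Spcs3 of the signal peptidase differed by -0.14 and 0.05, and Spcs2 had the largest residual SD of the 34 genes (0.187).

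Within groups, the 34 genes had a lower median residual SD than all genes tested, but the comparison was not matched for level. The median residual SD was 0.0544 over the 34, against 0.0913 over all genes tested. The 34 averaged a log2 level of 9.19 to 9.29 per array, while array medians lay between 6.25 and 6.28. The lowest residual SD was 0.0114, for Edem2, which had tied values (7 distinct values in 9 arrays). The mean deviation of the 34 genes from their own 9-array means was -0.03, 0.0042 and 0.0029 in DHX9-1271 arrays, -0.0019, 0.02 and 0.04 in DHX9-837 arrays, and -0.06, -0.0014 and 0.01 in Control arrays. The hairpin and control arrays overlapped on this measure, and Control replicate 1 was the lowest of the 9. The map of deviations shows rows that differ in sign within a column.

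**Figure D3:**
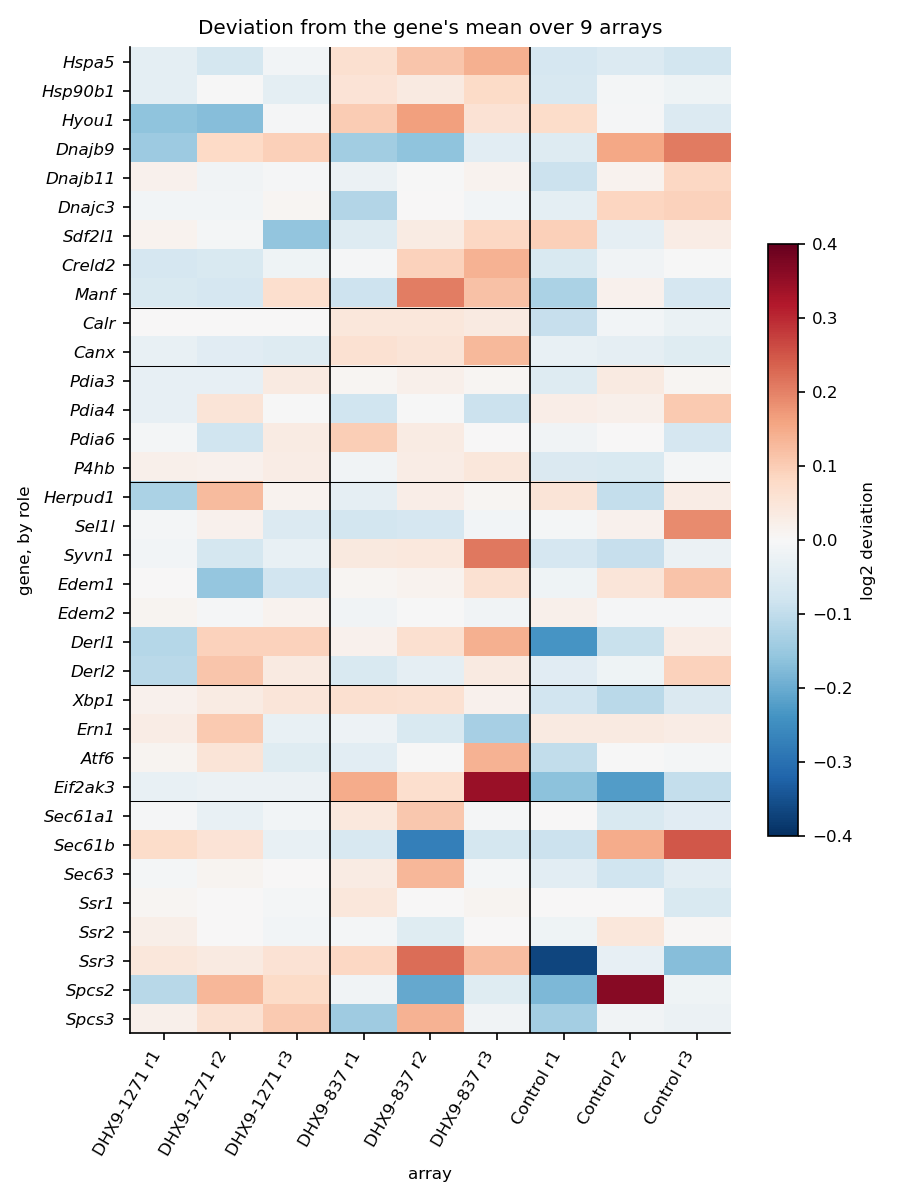
Each cell gives the deviation of 1 gene (row, grouped by role) in 1 array (column) from that gene's mean over the 9 arrays, on the log2 scale shown by the colour bar (red above the mean, blue below). The DHX9-837 columns are red for Hspa5, Calr, Canx, Syvn1 and Eif2ak3 and blue for Dnajb9 and Sec61b, and the darkest cells belong to single arrays, among them Ssr3 in Control replicate 1 and Spcs2 in Control replicate 2.

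Set directly against DHX9-1271, DHX9-837 changed no ER gene past the threshold in limma, where 1.90% of all genes were called, 0.696% higher and 1.21% lower. At an unadjusted p under 0.05 there were 6, all higher with DHX9-837: Hspa5, Hyou1, Creld2, Canx, Syvn1 and Eif2ak3 (17.6% of the 34, against 14.3% of all genes in either direction). The difference was 0.15 for Hspa5 (95% interval 0.05 to 0.24, limma adjusted p = 0.142), 0.22 for Hyou1 (95% interval 0.08 to 0.36, adjusted p = 0.128) and 0.21 for Eif2ak3 (95% interval 0.05 to 0.38, adjusted p = 0.205). The Hyou1 estimates lay on opposite sides of control, at -0.12 with DHX9-1271 and 0.10 with DHX9-837, both with intervals that included 0. For Ssr3 the difference between the hairpins was 0.10 (95% interval -0.09 to 0.28, limma adjusted p = 0.667). A rise called with DHX9-837 and not with DHX9-1271 is therefore not shown to differ between the hairpins for any of the 3 called genes. All 3 DHX9-837 arrays lay above all 3 DHX9-1271 arrays for 10 of the 34 genes (29.4%), against 9.37% of all genes, and below them for 1, Sec61b (2.94%, against 12.6%). No test was made of these shares.

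The genes that carry an ERSE were near 0 with DHX9-1271 and mostly just above it with DHX9-837. With DHX9-837 the 8 had a median difference from control of 0.09 (range -0.09 to 0.17), 7 were above 0 and 5 had every array above the controls, where 49.7% and 17.1% of all genes did. Of the 8, 1 was called higher, Hspa5, beside 8.67% of all genes. No test was made of these shares. With DHX9-1271 the median was 0.0049 (range -0.05 to 0.04) and none was called. The exception with DHX9-837 was Dnajc3. With arrays centred on the median of the tested genes the ERSE medians were 0.07 for DHX9-837, still with 7 above 0, and -0.02 for DHX9-1271, with 1 above 0. The 19 genes whose promoter window held no ERSE had a median of -0.0083 with DHX9-837 (range -0.24 to 0.35, 8 above 0), and 0.0011 with DHX9-1271. They include Eif2ak3 and Ssr3, and the ERSE-II genes Herpud1 and Dnajb11. The 7 with no promoter in the table had medians of 0.08 with DHX9-837 (6 above 0) and 0.04 with DHX9-1271 (5 above 0). So a median near that of the ERSE genes with DHX9-837 was also seen in genes whose promoter was not searched. None of these 7 had every DHX9-837 array above the controls. Outside the 34, 29 other genes carried an ERSE and 13 of them were tested. With DHX9-837 their median difference was 0.05 and 1 rose, Alg12, a mannosyltransferase of the ER; with DHX9-1271 the median was 0.03 and none was called.

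**Figure D4:**
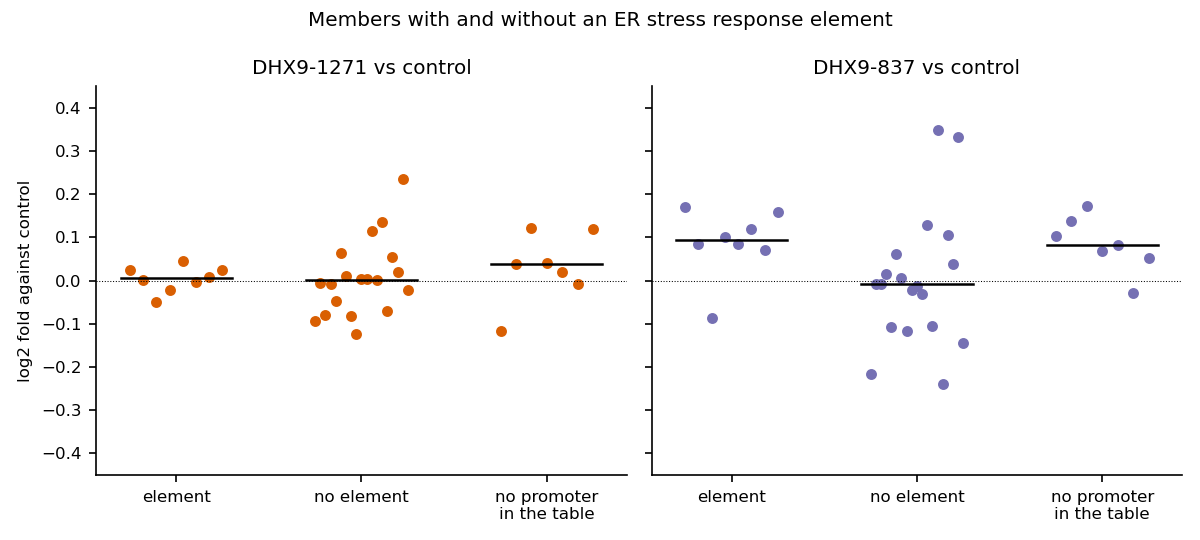
The log2 difference from control (vertical axis) is plotted for each of the 34 genes as 1 point, with DHX9-1271 on the left and DHX9-837 on the right, split by whether the promoter window holds an ERSE (8 genes), holds none (19) or was not in the table (7); the horizontal lines are medians. In the DHX9-837 panel 7 of the 8 ERSE genes lie above 0 with a median of 0.09, and in the DHX9-1271 panel the 8 lie around 0.

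Other genes of the pathway were taken from 4 lists drawn up by function, but with earlier results of these data known. The shares called in them are therefore no independent support. No test was made of the shares called in them. Of 12 further sensors and factors, 2 rose with DHX9-1271, 4 with DHX9-837 and 4 over both hairpins, and none fell in these comparisons. The rises were 16.7%, 33.3% and 33.3% of the 12, beside 2.83%, 8.67% and 8.13% of all genes. Of all genes 1.58%, 6.91% and 5.33% fell. The 2 with DHX9-1271 were Creb3l1 and Ern2, and the count was 0 without DHX9-1271 replicate 3 (adjusted p of Creb3l1 0.0501) and 1 without Control replicate 1 or 2, DHX9-1271 replicate 1 or 2, or DHX9-837 replicate 1. The median differences were 0.10 with DHX9-1271 and 0.05 with DHX9-837. Creb3l1, a membrane-bound relative of ATF6 found in secretory cells, was at 9.55, 9.61 and 9.57 in DHX9-1271 arrays, 9.56, 9.51 and 9.55 in DHX9-837 arrays, and 9.25, 9.27 and 9.11 in Control arrays. Its hairpin arrays lay above its controls, by 0.35 over both hairpins (SE 0.05, limma adjusted p = 0.00223). Ern2, encoding IRE1 beta, the gut's own form of IRE1, was at 8.64, 8.75 and 8.66 in DHX9-1271 arrays, 8.66, 8.64 and 8.73 in DHX9-837 arrays, and 8.36, 8.45 and 8.47 in Control arrays. It rose by 0.25 over both hairpins (SE 0.04, limma adjusted p = 0.00783) while Ern1 did not pass. Creb3l3, another factor of the ATF6 kind (0.39, limma adjusted p = 0.0112), and Mbtps2, the protease that completes the cutting of ATF6 (0.17, limma adjusted p = 0.0345), made up the 4. Mbtps2 lost its call in 14 of 19 alternatives, among them leaving out any 1 array other than DHX9-837 replicate 1 (difference 0.14 to 0.19, highest adjusted p 0.101), and with DHX9-837 in 4 of 20 (highest adjusted p 0.0597).

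Of 17 tested genes of the PERK and ATF4 branch, 3 rose with DHX9-1271 and 7 with DHX9-837, where 1 fell. The rises were 17.6% and 41.2% of the 17, beside 2.83% and 8.67% of all genes. With DHX9-837, 6.91% of all genes fell. The 3 were Asns, Vldlr and Nupr1, and the count was 1 without DHX9-1271 replicate 2 or 3, which left Asns. Nupr1 with DHX9-1271 lost its call in 16 of 20 alternatives (highest adjusted p 0.172). The 7 with DHX9-837 became 5 to 7 with single arrays left out, and Atf5 among them lost its call in 12 of 20 alternatives (highest adjusted p 0.0985). The 1 that fell, Ppp1r15b, lost its call in 7 of 20, among them without Control replicate 1 or 3 or DHX9-837 replicate 1 or 2 (highest adjusted p 0.0818), and the count that fell was 2 without Control replicate 2 or DHX9-837 replicate 3. Over both hairpins 7 rose (41.2%, against 8.13% of all genes) and 3 fell, where 5.33% of all genes did. The median differences were 0.09 with each hairpin. Asns, the asparagine synthetase and a standard ATF4 target, was at 8.46, 8.73 and 8.55 in DHX9-1271 arrays, 8.91, 9.20 and 8.98 in DHX9-837 arrays, and 7.11, 7.54 and 7.46 in Control arrays. Its groups did not overlap, and it was higher by 1.21 with DHX9-1271 (limma adjusted p = 0.00269) and by 1.65 with DHX9-837 (limma adjusted p = 0.000172). Vldlr, a lipoprotein receptor and ATF4 target, rose by 0.46 over both hairpins (limma adjusted p = 0.00218) and Nupr1, a stress-induced nuclear protein, by 0.44 (limma adjusted p = 0.00592). Slc7a11, the cystine transporter, rose by 1.10 over both (limma adjusted p = 0.00362). Its control mean of 5.20 lay under the level of 5.28 used as the filter, so the size of that rise is uncertain.

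Atf4 itself rose by 0.23 with DHX9-837 (limma adjusted p = 0.0132), and with DHX9-1271 it differed by 0.14 (adjusted p = 0.153). Ddit3, encoding CHOP, the factor tied to cell death after prolonged ER stress, did not pass, at 7.09, 7.14 and 6.99 in DHX9-1271 arrays, 7.04, 7.06 and 7.30 in DHX9-837 arrays, and 6.90, 7.10 and 7.28 in Control arrays. Its groups overlapped, with a difference of 0.01 over both hairpins (limma adjusted p = 0.941). Atf4 and Ddit3 are named outside the rule of smallest p and were picked with their values known. The genes that fell over both hairpins were Atf3, Ppp1r15b and Sesn2, and they lost their calls in 7, 14 and 13 of 19 alternatives, leaving out Control replicate 1 among them for each (highest adjusted p 0.0964, 0.112 and 0.171). Over both hairpins the rise of Atf4 was lost without Control replicate 1 or DHX9-1271 replicate 3 (highest adjusted p 0.0771). ATF4 is also raised by other kinases than PERK, and these inputs cannot be told apart here.

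Of 27 further folding and quality-control genes, 2 rose with DHX9-1271, and 5 rose and 2 fell with DHX9-837. The rises were 7.41% and 18.5% of the 27, beside 2.83% and 8.67% of all genes. With DHX9-837, 6.91% of all genes fell. The 5 became 3 without Control replicate 1, and Fkbp2, a prolyl isomerase, lost its call in 15 of 20 alternatives (highest adjusted p 0.118). The 2 that fell were Os9 and Selenos, both of ER-associated degradation. Selenos lost its call in 11 of 20 alternatives (highest adjusted p 0.113), and the count that fell was 1 without any 1 control array, DHX9-1271 replicate 1, or DHX9-837 replicate 1 or 3. Over both hairpins 5 rose (18.5%, against 8.13% of all genes) and none fell. The count that rose was 2 without Control replicate 1 and 3 without DHX9-1271 replicate 3, and 1 fell without Control replicate 2. Ero1a, the oxidase that recharges the disulfide isomerases, was at 8.91 in each DHX9-1271 array, 9.13, 9.21 and 9.15 in DHX9-837 arrays, and 8.64, 8.68 and 8.72 in Control arrays. It did not overlap between any of the groups, and it rose by 0.23 with DHX9-1271 (limma adjusted p = 0.0271) and by 0.48 with DHX9-837 (limma adjusted p = 0.000352). Stub1, a ubiquitin ligase that works with cytosolic chaperones, rose by 0.24 with DHX9-1271 and 0.26 with DHX9-837 (limma adjusted p = 0.0259 and 0.00628). With DHX9-1271 the calls of Ero1a, Stub1 and Ern2 were each lost without any 1 of its 3 arrays (highest adjusted p 0.107, 0.103 and 0.114 over all alternatives). Txndc5, a disulfide isomerase, rose by 0.29 with DHX9-837 (limma adjusted p = 0.0133), and Dnajc10, a reductase that aids degradation, by 0.30 (limma adjusted p = 0.0159). Dnajc10 lost that call without Control replicate 1 (adjusted p 0.0534). Over both hairpins Txndc5 lost its call without Control replicate 1, and Dnajc10 without Control replicate 1, Control replicate 2 or DHX9-1271 replicate 3 (highest adjusted p 0.0595 and 0.0856).

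Of 22 further genes of the translocon, signal peptidase and sugar transfer, none was called with DHX9-1271, beside 4.41% of all genes. At an unadjusted p under 0.05 in limma there were 2 (9.09%, against 20.5% of all genes). With DHX9-837, 1 rose and 2 fell, 13.6% in either direction beside 15.6% of all genes. The rise was lost without DHX9-837 replicate 2 or 3. The count that fell was 0 without DHX9-837 replicate 1 or 3, and 1 without Control replicate 3 or DHX9-1271 replicate 1 or 3. Over both hairpins Srp72, of the signal recognition particle, rose by 0.17 (limma adjusted p = 0.044) and Sec11c, a signal peptidase subunit, fell by 0.19 (limma adjusted p = 0.0349). Srp72 lost its call in 14 of 19 alternatives and Sec11c in 12, leaving out any 1 of most arrays included (highest adjusted p 0.116 and 0.0998).

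**Figure D5:**
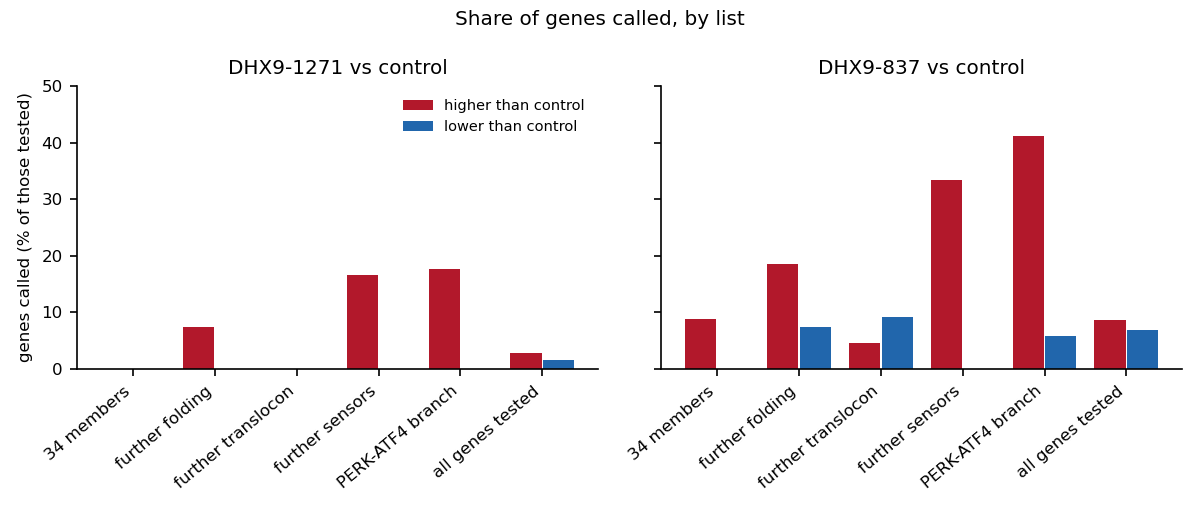
Bars give the share of tested genes called higher (red) or lower (blue) than control, in percent, for the 34 ER genes, the 4 further lists and all genes tested, with DHX9-1271 on the left and DHX9-837 on the right. With DHX9-837 the bar for the 34 genes (8.82%) stands beside 8.67% for all genes.

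Markers of other cells moved with the hairpins as well. Their lists too were chosen with earlier results of these data known, and no test was made of their shares. Of 9 markers of cycling cells, 6 rose with DHX9-1271 and 7 with DHX9-837, at a mean log2 level of 8.35 to 8.38 in DHX9-1271, 8.34 to 8.44 in DHX9-837 and 7.71 to 8.10 in Control arrays. The 6 with DHX9-1271 became 1, Tpx2, without DHX9-1271 replicate 3, 2 without its replicate 2, and 3 without its replicate 1 or Control replicate 3. Aurka and Aurkb lost that call in 13 and 15 of 20 alternatives (highest adjusted p 0.144 and 0.158). With DHX9-837 the count was 5 to 8 with single arrays left out. With all arrays, 66.7% (DHX9-1271) and 77.8% (DHX9-837) of the 9 rose, beside 2.83% and 8.67% of all genes. Of 12 plasma-cell markers, none was called with DHX9-1271 (2 at an unadjusted p under 0.05 in limma) and 3 rose with DHX9-837, namely Igha, Igkc and Ighm. At the unadjusted threshold the 2 with DHX9-1271 were 16.7% of the 12, beside 20.5% of all genes. The 3 that rose with DHX9-837 were 25%, beside 8.67% of all genes. All 3 calls were lost without Control replicate 1, without Control replicate 3 and without DHX9-837 replicate 1 (highest adjusted p 0.102, 0.0734 and 0.0663). The count with DHX9-837 was 1 without Control replicate 2 and 5 without DHX9-1271 replicate 2, and with DHX9-1271 it was 1 without DHX9-1271 replicate 1. The list's mean level was 8.16 to 8.47 in DHX9-1271, 8.29 to 8.45 in DHX9-837 and 8.16 to 8.23 in Control arrays, and Mzb1, an ER chaperone of those cells, differed by 0.06 with DHX9-837 (limma adjusted p = 0.728).

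Of 12 goblet-cell markers, 1 rose with DHX9-1271, namely Agr2, itself a disulfide isomerase of the ER. With DHX9-837, Agr2 and Spdef rose and Fcgbp, Tff3 and Galnt12 fell. In either direction 8.33% (DHX9-1271) and 41.7% (DHX9-837) of the 12 were called, beside 4.41% and 15.6% of all genes. Agr2 with DHX9-1271 lost its call in 12 of 20 alternatives, and with DHX9-837 Spdef and Fcgbp lost theirs in 14 each and Galnt12 in 5, leaving out DHX9-837 replicate 1 among them. Without Control replicate 2 the count that rose was 3 with DHX9-1271 and 4 with DHX9-837. The mean level was 10.76 to 10.81 in DHX9-1271, 10.64 to 10.70 in DHX9-837 and 10.46 to 10.87 in Control arrays. Of 7 fibroblast markers, 1 rose with DHX9-1271 and 3 with DHX9-837, at a mean level of 9.12 to 9.23 in DHX9-1271, 9.07 to 9.22 in DHX9-837 and 8.78 to 9.04 in Control arrays. The 1 with DHX9-1271, Fbln1, lost its call in 13 of 20 alternatives, among them leaving out any 1 control or DHX9-1271 array (highest adjusted p 0.141), and without Control replicate 2 the count was 3, with Fbln1 not among them. With DHX9-837 it was 2 or 3 with single arrays left out. The rises were 14.3% (DHX9-1271) and 42.9% (DHX9-837) of the 7, beside 2.83% and 8.67% of all genes. All 7 differences were above 0 with each hairpin. At an unadjusted p under 0.05 in limma there were 6 with DHX9-1271 (85.7%, against 20.5% of all genes). With DHX9-837 there were 3 (42.9%, against 30.1%). Every array lay above the controls for 6 and 3 genes, where 15.4% and 17.1% of all genes did. Of 11 epithelial markers, 1 fell with DHX9-1271, and 1 rose and 2 fell with DHX9-837. In either direction these were 9.09% and 27.3% of the 11, beside 4.41% and 15.6% of all genes. The fall with DHX9-1271, of Slc26a3, was lost in 9 of 20 alternatives, among them without any 1 of its 3 arrays (highest adjusted p 0.111). The rise with DHX9-837, of Krt8, was lost in 14 of 20 (highest adjusted p 0.133), and the 2 falls, of Slc26a3 and Aqp8, were kept in all 20. Pancreatic acinar cells, the other ER-rich cell that a gut sample could carry, had 8 of 11 markers with a probe set, and Cpa1, Cel and Cpb1 lay below the level filter. Of the 5 tested, none was called in limma with either hairpin (0 at an unadjusted p under 0.05), and 1 was lower with DHX9-1271 without Control replicate 3. Of all genes, 4.41% (DHX9-1271) and 15.6% (DHX9-837) were called, and 20.5% and 30.1% had an unadjusted p under 0.05. A list of 5 is too short to set apart from the shares called. The mean log2 level over the 8 was 5.53 to 5.62 in DHX9-1271, 5.57 to 5.87 in DHX9-837 and 5.54 to 5.87 in Control arrays. The part of these cell types in the levels of Hspa5, Eif2ak3, Ssr3, Creb3l1 and Ern2 was not tested.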

How the data were processed

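RNA of 9 large intestine samples in 3 groups was hybridised, per the labels' protocols, to the Mouse Gene 2.0 ST array of Affymetrix. The deposited values are log2 expression levels. The authors made them with RMA, and the submitters' processing notes name oligo 1.30.0 and R 3.1.1. RMA's options, the genome build and how probe sets were defined are not stated there. Quantile normalization, part of RMA as a method, would hide a common shift of most genes, and its median polish leaves tied values (14 of the 34 genes had some). Arrays have no read depth, so their number limits the precision.

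The platform's annotation named 24015 of 24973 probe sets with 1 symbol and did not list 958. The brightest was kept per symbol, and genes with a mean log2 level under the 30th percentile (5.28) were left out. Group means were fitted over all 9 arrays with limma 3.58.1 in R 4.3.3, with 4 contrasts, empirical Bayes moderation (6 residual and 2.84 prior degrees of freedom) and Benjamini-Hochberg adjustment over 16808 genes. Residual SDs come from this fit. The method was tested on simulated data. Figures used matplotlib 3.10.9 in Python 3.11.15.

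The members and lists were chosen with earlier results of these data known. Values in every array are given for called members, Hspa5, Xbp1 and the sensors, and up to 4 called genes of smallest p over both hairpins are named per further list. Alternatives changed the filter, probe set choice, scaling, moderation, weights, arrays fitted, replicate block and arrays left out. Replicate numbers were checked for pairing: 2 of 9 same-numbered pairs of arrays had a correlation of deviations over 0.1. The numbers were thus not shown to pair the arrays, though so few arrays cannot exclude it. Promoter sequences are RefSeq's (GRCm38.p6).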

Additional observations from a re-analysis of the deposited data

Results flagged for a closer look

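Genes whose difference from control itself differed between the hairpins were looked for among the named lists, by limma's test of DHX9-837 minus DHX9-1271. None of the 34 ER genes passed, and 4 genes of the other lists did, where 1.90% of all genes were called. They were 3.7% of the 27 further folding genes, 5.88% of the 17 PERK and ATF4 genes and 18.2% of the 11 epithelial markers. The remaining lists had none, and no test was made of these shares. Ero1a, the ER oxidase, was higher with DHX9-837 by 0.25 (limma adjusted p = 0.0311), with every DHX9-837 array above every DHX9-1271 array. Slc7a11, the cystine transporter, was higher by 1.04 (limma adjusted p = 0.0329), at 6.78, 7.25 and 6.42 in DHX9-837 arrays and 5.72, 5.92 and 5.69 in DHX9-1271 arrays. The epithelial genes Slc26a3, a chloride exchanger of surface cells, and Aqp8, a water channel of the same cells, were lower with DHX9-837, with differences of -0.36 (limma adjusted p = 0.0196) and -0.67 (limma adjusted p = 0.0345). Slc26a3 was at 11.74, 11.84 and 11.74 in DHX9-837 arrays and 12.14, 12.07 and 12.17 in DHX9-1271 arrays. Aqp8 was at 10.01, 10.25 and 9.86 in DHX9-837 arrays and 10.73, 10.68 and 10.71 in DHX9-1271 arrays. Each of the 4 calls was lost without any 1 of the 3 DHX9-1271 arrays, and in all Ero1a lost its call in 10 of 20 alternatives, Slc7a11 in 9 of 19, Slc26a3 in 6 of 20 and Aqp8 in 9 of 20, with the direction kept (highest adjusted p 0.132, 0.143, 0.101 and 0.139). Dhx9 differed by -0.02 between these groups (limma adjusted p = 0.908). Groups of 3 arrays were too small for a test of single outlying arrays.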

How the results depend on the processing

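No called difference among the results reported here changed sign under any alternative. For the 34 ER genes, the count higher with DHX9-837 was 3, and became 5 with trended, robust moderation and 1 with only the arrays compared; leaving out single arrays gave 1 to 3 higher and 0 to 1 lower. Over both hairpins the count was 2, and became 0 with no level filter, 0 with all probe sets, 4 with trended, robust moderation and 1 with array weights; leaving out single arrays gave 0 to 1 higher and 0 lower. With DHX9-1271 it stayed at 0 in both directions under all alternatives. Between the hairpins it was 0 in both directions and became 1 higher with trended, robust moderation only.

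Over all genes with DHX9-1271, 475 rose and 266 fell. The counts became 254 and 154 with no level filter, 255 and 152 with all probe sets, 207 and 129 with only the arrays compared, and 719 rose with trended, robust moderation. Leaving out single arrays gave 77 to 431 higher and 51 to 283 lower, both lowest without DHX9-1271 replicate 3. With DHX9-837, 1457 rose and 1161 fell, 942 and 732 with only the arrays compared, and 942 to 1333 and 775 to 1183 with single arrays left out. Over both hairpins, 1367 rose and 896 fell, with ranges of 779 to 1161 and 584 to 910. Between the hairpins, 117 were higher and 203 lower with DHX9-837. These became 53 and 87 with no level filter, 55 and 89 with all probe sets, 197 and 357 with trended, robust moderation, 282 and 437 with array weights, 178 higher with cyclic loess and 320 lower with the filter at the median. Leaving out single arrays gave 9 to 125 and 19 to 237, both lowest without DHX9-1271 replicate 3.

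The replicate numbers were not shown to pair the arrays. A block on them gave 264 higher and 143 lower genes with DHX9-1271, and 62 and 106 between the hairpins. Under the block Hspa5 with DHX9-837 had an adjusted p of 0.0552, and it changed the call of no other ER gene. Of the 9 arrays, 2 correlated best with one of their own number.

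Scaling moved the split of calls. With DHX9-1271, 64.1% of called genes were higher, against 53.7% with cyclic loess and 53.1% with arrays centred on the median of the tested genes; over both hairpins it was 60.4%, against 48.5% with that centring. With DHX9-837 it was 55.7%, against 46.1% with that centring (1265 higher and 1480 lower). The median difference of the 34 ER genes was then -0.02 with DHX9-1271 and 0.0071 over both, so the first has no settled sign. The Dhx9 difference over both hairpins lay between -1.05 and -0.98 with single arrays left out. The members' levels lay above the filter on low levels in all groups, and arrays measure RNA, not protein or sensor activity.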
